A study of Bos taurus with 252 samples.

Results

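The class II histocompatibility genes of cattle were followed in whole blood, as every row of the count table whose symbol begins with BOLA-D together with CD74 and CIITA. The rule found 14 of the 33282 rows. Of these, 13 were among the 19056 genes that passed the filter on low values, a CPM above 0.2 in at least 12 libraries, where CPM is the count scaled to a library of 1000000 counts, with TMM factors. The row left out of the tests was BOLA-DYA, an alpha chain gene of the DY pair, which had no count in 205 libraries and at most 11 counts in any. The blood came from 42 steers, 6 in each of 7 groups, and each steer gave a library on day 0 and again after 3, 7, 14, 21 and 56 days. Negative control steers (NC) received no antimicrobial. The other groups received 1 drug once on day 0, after the first sample, which was a macrolide in TULA (tulathromycin) and TILD (tildipirosin), a tetracycline in OXYT (oxytetracycline), a phenicol in FLOR (florfenicol), a fluoroquinolone in ENRO (enrofloxacin) and a cephalosporin in CEFT (ceftiofur). According to the study's methods, every steer, the controls included, had earlier been given tildipirosin, a hormone implant, antiparasitics and respiratory vaccines during backgrounding. Each group had its own pen and its own place in the sampling order, so pen, order and treatment cannot be told apart.

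Class II molecules are pairs of an alpha and a beta chain that carry peptides of engulfed proteins to the surface of B cells, monocytes and dendritic cells, where CD4 T cells read them. In cattle the classical pairs are DR and DQ, whose beta chains and DQ alpha chains differ widely between animals, and the number of DQ genes itself varies between haplotypes. The invariant chain CD74 escorts new pairs to the endosome, DM loads them with peptide, DO restrains DM, and CIITA is the coactivator that switches the whole set on. The tubes lyse all cells of the blood together, so fewer class II bearing cells and less RNA per cell cannot be told apart in any value below.

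All 14 symbols have an entry in the RefSeq gene table of assembly ARS-UCD2.0, which was used for names and order only. On its chromosome 23 the order of these rows runs BOLA-DYA, BOLA-DYB, BOLA-DOB, BOLA-DMB, BOLA-DMA and BOLA-DOA, then BOLA-DQA2, BOLA-DQB, BOLA-DQA5, a second DQ beta gene, the DQ alpha gene LOC100848815, BOLA-DRB3, BOLA-DRB2 and BOLA-DRA. Other genes between them and distances were not looked at. CIITA lies on chromosome 25 and CD74 on chromosome 7. The second DQ beta gene is listed in the count table as BLA-DQB and is therefore not a member. It and LOC100848815 are given beside the members because the DQ genes are close relatives, and reads of one copy may have been counted in the row of another, which makes the single DQ rows uncertain. The study's methods name HISAT2 and StringTie2 at default settings, a merge of the assemblies and a custom script for ambiguous gene names. How reads that match several copies were shared is not stated there.

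Library totals lay between 26073640 and 74110289 counts, with a median of 43608836, and the members together held 0.476% to 2.07% of a library. CD74 held 53.1% and BOLA-DRA 21.9% of all member counts. Hemoglobin genes held 0.00405% to 25.5% of a library, with medians of 0.224% on day 0, 3.36% on day 21 and 0.334% on day 56. Lane 1 held the NC and ENRO steers with 2 of FLOR, lane 2 the TULA steers with 4 of FLOR and 4 of TILD, and lane 3 the remaining 14 steers, of CEFT, OXYT and TILD. By all genes tested, the nearest library of another day was of the same steer for 100% of libraries, so no library stood with the wrong animal. A value of 3 counts, the limit that a count of 0 allows, equals a CPM of 0.0433 to 0.122 in these libraries, for counting error only.

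The first question was how much of the variation of each member lay between steers and how much between days. In the sums of squares of log2 CPM, steers took a median of 69.1% over the 13 tested members and days took 4.77%. Over all genes tested the medians were 38.6% and 8.36%. Steers took over 50% in 11 of 13 members, against 28.6% of all genes tested. Group, pen and lane were constant within a steer, so the share of steers includes any difference between them. Differences between the group means took 3.89% for BOLA-DMB to 16.2% for CD74, as part of that share. The share between steers was 97.3% for BOLA-DQA5, 85.7% for BOLA-DQA2 and 76.4% for BOLA-DQB, the 3 DQ rows. It was lowest for BOLA-DOB, the DO beta chain, at 30.3%. The share of the days was 14.4% for CIITA, 14.2% for BOLA-DOA, 13.7% for CD74, 13.5% for BOLA-DMB and 13.4% for BOLA-DRA, and only 0.0491% for BOLA-DQA5 and 0.428% for BOLA-DMA. Steers of the same group differed in 13 of 13 members by edgeR's quasi-likelihood F test at an FDR of 0.05, where 91.7% of all genes tested also passed. The F value ran from 1.76 for BOLA-DOB, with an FDR of 0.0110, to 107 for BOLA-DQA5.

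**Figure D1:**
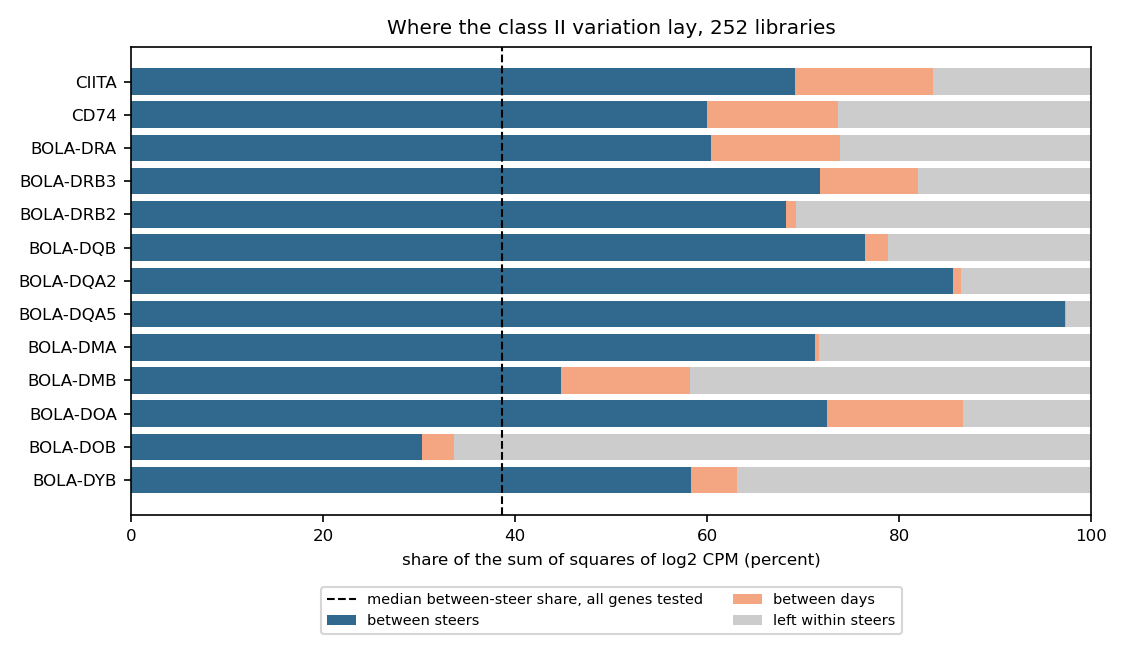
Share of the sum of squares of log2 CPM, in percent, that lay between steers, between days and within steers for the 13 tested members, one bar a gene. The dashed line marks the median between-steer share of all genes tested, 38.6%, which 12 members exceeded and BOLA-DOB, at 30.3%, did not.

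BOLA-DQA5, a DQ alpha chain row, was present in some steers and absent in others. A steer was called on where all 6 of its libraries had a CPM of at least 1, off where all 6 were below 0.2, and mixed otherwise. By that rule 14 steers were on, 24 were off and 4 were mixed. The 24 off steers had 16 counts in all over 144 libraries, and 129 of those libraries were at 0. The 14 on steers had mean levels of 14.3 to 270 CPM, with no library below 11.4. Within an on steer the highest of the 6 days was 1.27 to 3.02 times the lowest, with a median of 1.72. In NC5, the single NC steer that was on, the values were 133, 146, 216, 204, 198 and 179 CPM over the 6 days, while the other 5 NC steers had means of at most 0.00320 CPM. Of the on steers 4 were in TILD, 3 in OXYT, 2 each in TULA and FLOR and 1 each in the remaining groups. Of the 14 on steers, Oxyt6 stood apart at 11.4 to 17.8 CPM, and the means of the other 13 were at least 86.8 CPM. Its values overlapped those of 2 mixed steers. Ceft8 had no count on day 0 and 12.3 to 14.2 CPM afterwards, and Flor10 had no count on day 3 and at least 7.25 CPM on the other days. Ceft6 had 18.9 CPM on day 0 and no count on the 5 later days. The fourth mixed steer, Tula5, did not exceed 0.471 CPM. A count of 0 allowed at most 0.0620 CPM in the day 0 library of Ceft8, so its later values were at least 198-fold higher.

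BOLA-DQA2, the other DQ alpha row among the members, was on in 14 steers, off in 18 and mixed in 10. The off steers had 32 counts in all over 108 libraries. The on steers varied by 1.83-fold to 84.5-fold over their 6 days, with a median of 6.85, where the on steers of BOLA-DQA5 did not exceed 3.02-fold. Of the 20 on or mixed steers whose 6 values could be compared as a ratio, 16 differed by more than 4-fold between their highest and lowest day. Tild5 had 0.429 CPM on day 0, 238 on day 21 and between 1.26 and 8.11 on the other days, a range of 554-fold. Oxyt2 had 0.118 CPM on day 0, 318 on day 3, 265 on day 7 and at most 2.44 on later days. Ceft3 was at 0.124 and 0.227 CPM on days 0 and 7 and between 68.6 and 153 on the other days. Such peaks fell on different days in different steers, as in Flor8, whose 72.3 CPM on day 7 stood beside at most 0.151 on all other days. Tula4, by contrast, stayed between 42.1 and 76.9 CPM. In NC only NC15 was on, with 3.78 to 16.2 CPM, and the other 5 NC steers had no count on any day. Of the 42 steers, 3 were on for both DQ alpha rows, 10 were on for BOLA-DQA5 and off for BOLA-DQA2, 8 were on for BOLA-DQA2 and off for BOLA-DQA5, and 7 were off for both.

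**Figure D2:**
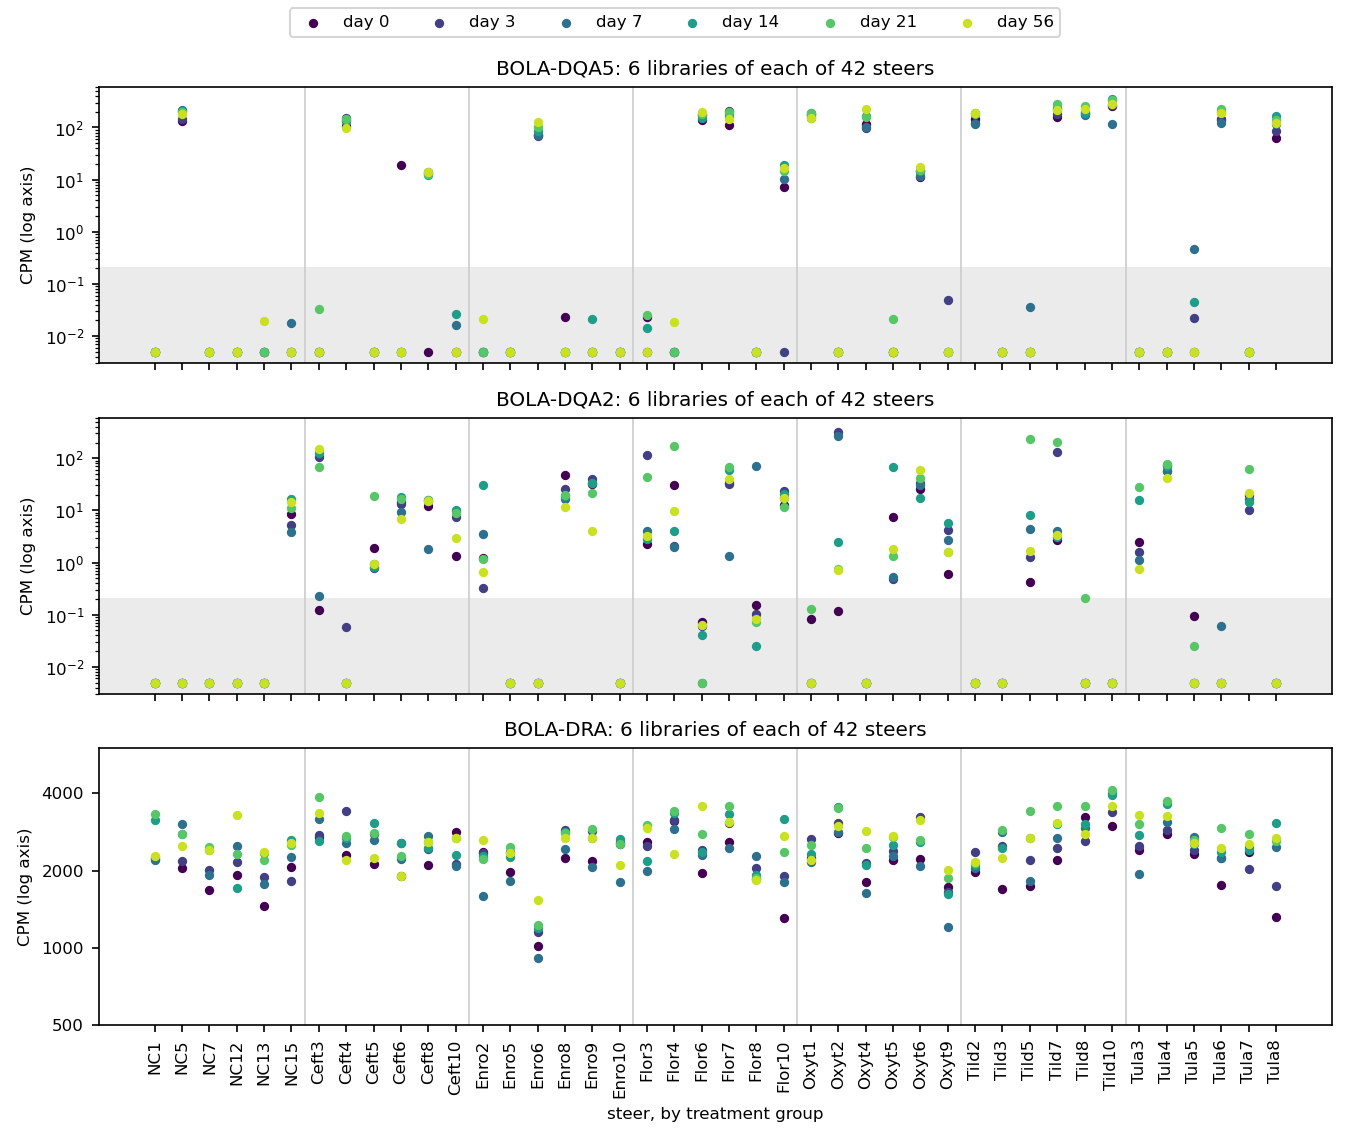
CPM on a log axis for BOLA-DQA5, BOLA-DQA2 and BOLA-DRA in the 42 steers, ordered by group, 1 point a library and coloured by day. The grey band is below a CPM of 0.2, and libraries with no count are drawn at 0.005. BOLA-DQA5 points of a steer lie together except in the mixed steers Ceft6, Ceft8, Flor10 and Tula5, BOLA-DQA2 points of many steers spread widely, and BOLA-DRA points of Enro6 lie below those of nearly all others.

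The sum of the DQ alpha rows was far steadier than BOLA-DQA2 and BOLA-DQA5, but only slightly steadier than LOC100848815, its largest part. The SD within steers of log2 CPM, after the day means were taken out, was 1.69 for BOLA-DQA2 and 0.97 for BOLA-DQA5, and it was 0.17 for BOLA-DQA2, BOLA-DQA5 and LOC100848815 summed. Steers took 92.1% of the variation of this sum. Its steer means ran from 198 to 1833 CPM, and no steer varied by more than 2.11-fold over its 6 days. Within steers, BOLA-DQA2 had a Spearman's rho of -0.23 with LOC100848815 over all libraries, which are not independent. LOC100848815 held most of the sum, with a median of 721 CPM and no library below 157. Alone it had an SD within steers of 0.21, and steers took 90.4% of its variation.

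In the DQ beta rows the opposed changes could be read in single steers. BOLA-DQB was counted in every library, with steer means of 25.3 CPM in Enro5 to 770 CPM in Flor7. The second row, BLA-DQB, was on in 31 steers, off in 7 with no count in any of their 42 libraries, and mixed in 4. In Tild2, BOLA-DQB stood at 477, 592, 153, 616, 650 and 627 CPM over the 6 days, and BLA-DQB was at 0 on all days but day 7, when it stood at 404. Tild8 had 300 CPM of BOLA-DQB on day 14, with 389 of BLA-DQB, against 562 to 863 and no count of BLA-DQB on the other 5 days. Oxyt9 had 23.7 to 61.4 CPM of BOLA-DQB on days 0 to 21 and 300 on day 56, the day on which its BLA-DQB was at 1.41 after 155 to 311 before. In each of these steers the low day of one row was the high day of the other, and the sum varied by 1.36-fold in Tild2, 1.53-fold in Tild8 and 1.60-fold in Oxyt9. Over all libraries the rho of BOLA-DQB and BLA-DQB within steers was -0.44. The SD within steers was 0.64 for BOLA-DQB and 0.19 for the sum, and the share of variation between steers was 93.6% for the sum. These 3 steers were chosen after their values were seen.

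**Figure D3:**
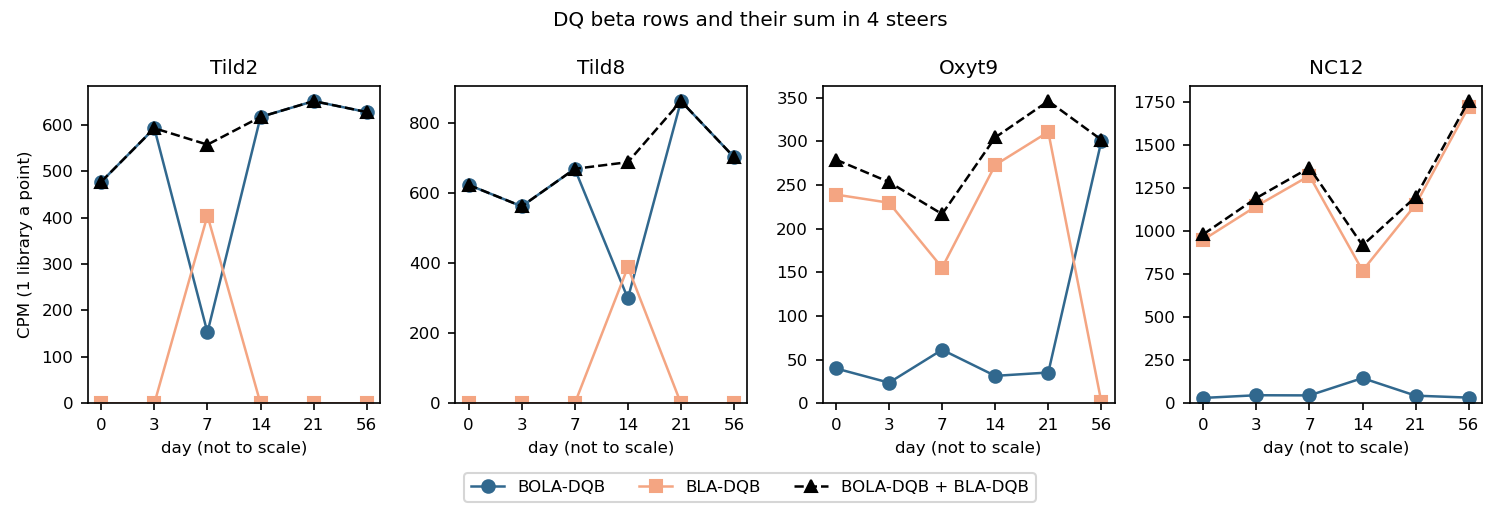
CPM of BOLA-DQB, BLA-DQB and their sum by day in 4 steers, 1 library a point; the days are evenly spaced and each panel has its own axis from 0. In Tild2 on day 7, Tild8 on day 14 and Oxyt9 on day 56 the rows move against each other and the sum stays within 1.36, 1.53 and 1.60 times its lowest value, while NC12 is shown as a steer without such a day.

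A similar opposed pattern was seen between BOLA-DOB, the DO beta chain, and BOLA-DYB, the DY beta chain of ruminants, next to it in the order above. BOLA-DOB varied by more than 4-fold within 22 of 42 steers, and its SD within steers was 0.99, against 0.48 for BOLA-DYB. The rho between them within steers was -0.51. Their sum had an SD within steers of 0.28, and no steer varied by more than 3.22-fold in it. The share of variation between steers was 30.3% for BOLA-DOB and 58.3% for BOLA-DYB. Whether reads of one row were counted in the other was not tested.

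BOLA-DMA, the alpha chain of the peptide-loading DM pair, was unlike its partner BOLA-DMB. Steer means of BOLA-DMA ran over 318-fold, from 0.555 CPM in Oxyt5 to 177 CPM in Tild10. It varied by more than 4-fold within 23 of the 41 steers with a ratio, and in Enro8 it went from 0.589 CPM on day 7 to 28.2 on day 21. BOLA-DMB ran from 440 to 903 CPM over the steer means and varied by at most 2.18-fold within a steer. Within steers the rho of the 2 chains of DM was -0.04. A similar contrast held for the DR beta chains, of which BOLA-DRB3 is the main expressed gene in cattle and BOLA-DRB2 a poorly expressed one. Steer means of BOLA-DRB2 ran over 10.6-fold, from 1.83 to 19.4 CPM, and those of BOLA-DRB3 over 2.67-fold, from 656 to 1749 CPM. Enro8 held BOLA-DRB2 at 15.8 to 23.6 CPM on every day, while the means of the other ENRO steers were at most 6.29 CPM.

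The remaining members, the DR alpha chain, the invariant chain, the transactivator and BOLA-DOA, differed between steers by less than 4-fold and moved together. Steer means ran from 1174 to 3670 CPM for BOLA-DRA, from 2941 to 10084 for CD74, from 152 to 518 for CIITA and from 88.6 to 314 for BOLA-DOA. Over the 42 steers, the means of BOLA-DRA and CD74 had a Pearson's r of 0.93 and a rho of 0.91, with an adjusted permutation p of 4.23e-05 for r and 7.86e-05 for rho. Their r was 0.88 without the 2 farthest steers, and 0.95, 0.86 and 0.95 within lanes 1, 2 and 3. BOLA-DOA and CIITA had an r of 0.90 and a rho of 0.89, with the same adjusted p, an r of 0.88 without the 2 farthest steers, and 0.97, 0.98 and 0.79 within lanes. Of 55 pairs of the 11 members without an on and off pattern, 32 had an adjusted p under 0.05 by Pearson's r. Pairs of genes outside the set were not computed, so whether this number is particular to class II genes was not tested. None of the 10 pairs with BOLA-DMA was among them. The p values of BOLA-DRA with CD74 and of BOLA-DOA with CIITA are the smallest that 100000 permutations can give, before adjustment.

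The same genes also moved together within steers, from day to day. Over all libraries, less their steer and day means, the rho was 0.93 for BOLA-DRA and BOLA-DRB3, the chains of the DR pair, 0.82 for BOLA-DRA and BOLA-DMB, 0.82 for BOLA-DOA and CIITA, and 0.59 for BOLA-DRA and CD74. The summed DQ rows joined them, with a rho to BOLA-DRA of 0.86 for the DQ beta sum and 0.89 for the DQ alpha sum. By contrast, BOLA-DQB and BOLA-DQA2 as single rows had a rho of 0.25 and 0.03 with BOLA-DRA. LOC100848815, which holds most of the DQ alpha sum, had a rho of 0.77 with BOLA-DRA as a single row. These values describe libraries that share steers and days.

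One steer was low in most of the set. Enro6 had the lowest mean of all 42 steers in 8 members, namely BOLA-DRA, BOLA-DRB3, BOLA-DMB, BOLA-DOA, BOLA-DOB, BOLA-DYB, CD74 and CIITA. Its BOLA-DRA values were 1012, 1154, 912, 1199, 1228 and 1537 CPM, below the mean of every other steer on each day. Its 12 B cell markers summed to a mean of 1471 CPM, with rank 3 from the lowest of 42. Its monocyte markers, at 558 CPM, and its dendritic cell markers, at 117 CPM, were the lowest of all steers, and its T cell markers, at 3737 CPM, the highest. The part of these cells in its low class II levels was not tested. Tild10 was at the other end, with the highest means of BOLA-DRA, 3670 CPM, CD74, 10084 CPM, BOLA-DYB and BOLA-DMA, and the highest B cell markers, at 3067 CPM. Tula4 had the highest mean of BOLA-DOA, 314 CPM, with the B cell markers at 2756 CPM, rank 36.

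Levels of the 13 tested members alone placed 148 libraries, or 58.7%, next to a library of the same steer on another day. Distances were taken over log2 CPM less the mean of each day. Without BOLA-DQA2 and BOLA-DQA5 the number was 92, or 36.5%.

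Days were compared within steers, by edgeR's quasi-likelihood test with the steer as a block. Over the 6 days, 9 of 13 members changed at an FDR of 0.05, where 81% of all genes tested did. They were CIITA, CD74, BOLA-DRA, BOLA-DRB3, BOLA-DMB, BOLA-DOA, BOLA-DYB, BOLA-DQB and BOLA-DQA2. BOLA-DMA (FDR 0.576), BOLA-DOB (0.138), BOLA-DQA5 (0.627) and BOLA-DRB2 (0.162) did not pass. Against day 0, 6 members were higher on day 3, when 22.1% of all genes tested were higher and 19.2% lower, and 4 were higher on day 7, with 25.3% higher and 20.6% lower. On day 14 the number was 11, with 34.2% of all genes higher and 30.9% lower, on day 21 it was 9, with 34.1% and 32.5%, and on day 56 it was 8, with 33.9% and 31.8%. On each day 0 members were lower by edgeR at an FDR of 0.05, 0 were lower at an unadjusted p under 0.05, and 0 were lower by limma voom. The median log2 fold change of the tested members on day 56 was 0.34, and that of all genes tested was 0.02.

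CIITA, the transactivator, had a median of 241 CPM (125 to 478) over the 42 steers on day 0 and 344 CPM (193 to 585) on day 56. It was 0.20 ± 0.04 higher on the log2 scale on day 3, 0.16 ± 0.04 on day 7 and 0.45 ± 0.04 on day 56, where errors are SE, and on day 56 it was higher than on day 0 in 39 of 42 steers. CD74 went from a median of 5038 CPM on day 0 to 6909 on day 21 and 6418 on day 56, a log2 change of 0.46 ± 0.05 and 0.34 ± 0.05. It was higher in 40 of 42 steers on day 21 and in 33 on day 56. The ranges over steers overlapped widely between days, at 2185 to 8223 CPM on day 0 and 3812 to 11334 CPM on day 56.

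The DR chains rose by similar amounts. BOLA-DRA had a median of 2186 CPM on day 0 and 2613 on day 56, a log2 change of 0.29 ± 0.04, and was higher in 34 of 42 steers. BOLA-DRB3 had medians of 919 and 1070 CPM, a change of 0.31 ± 0.04, and was higher in 36 steers. BOLA-DRA was at 0.17 ± 0.04 on day 3, at 0.08 ± 0.04 on day 7, where it did not pass (FDR 0.0928), and at 0.36 ± 0.04 on day 21. BOLA-DRB2 was at 0.11 ± 0.10 on day 56 and had passed on day 14 only, at 0.28 ± 0.10.

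Of the DM and DO chains, BOLA-DOA rose by 0.47 ± 0.04 on day 56, from a median of 138 CPM (63.2 to 272) to 185 CPM (114 to 311), in 39 of 42 steers. BOLA-DMB rose by 0.18 ± 0.04, in 33 steers, after 0.02 ± 0.04 on day 7. BOLA-DMA stood at 0.36 ± 0.24 and BOLA-DOB at 0.35 ± 0.20, with errors wider than those of their partners, and neither passed on day 56. BOLA-DYB rose by 0.36 ± 0.10. The sum of BOLA-DOB and BOLA-DYB rose by 0.36 ± 0.06 (FDR 2.82e-08).

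BOLA-DQB rose by 0.41 ± 0.14 on day 56, and the 2 DQ beta rows together rose by 0.33 ± 0.04 (FDR 2.80e-13). BOLA-DQA5 stood at 0.10 ± 0.30 and BOLA-DQA2 at -0.09 ± 0.50. BOLA-DQA2 had passed on day 14, at 1.12 ± 0.51, and on day 21, at 1.89 ± 0.53, where 19 steers were higher than on day 0 and 8 lower. The 3 DQ alpha rows together rose by 0.28 ± 0.04 (FDR 5.86e-12), and LOC100848815 alone by 0.27 ± 0.04 (edgeR FDR 1.68e-08). The sums were chosen after the data were seen. On them, as on BOLA-DRA and BOLA-DRB3, the day 56 change lay between 0.28 and 0.36 with an SE of at most 0.06.

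**Figure D4:**
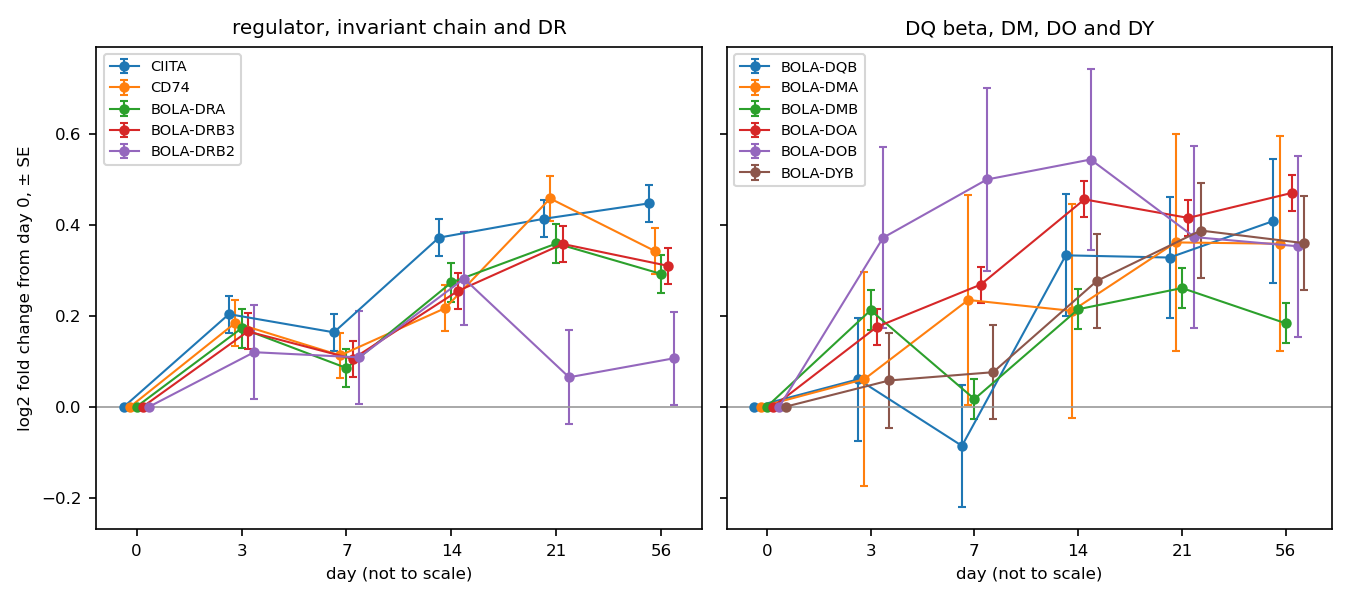
Log2 fold change from day 0 with its SE for 11 tested members, by day on an evenly spaced axis; edgeR, 42 steers. CIITA, CD74, BOLA-DRA, BOLA-DRB3 and BOLA-DOA lie above 0 on all later days with SE of at most 0.05, and the bars of BOLA-DMA reach past 0 on days 3 and 14.

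Within sequencing lanes, each of 14 steers, the day 56 change of CIITA was 0.42, 0.54 and 0.33 on lanes 1, 2 and 3, and that of BOLA-DOA was 0.47, 0.51 and 0.38, all past the threshold. BOLA-DRA was at 0.25, 0.43 and 0.15, and on lane 3 it did not pass (FDR 0.0622). CD74 was at 0.34, 0.47 and 0.16, with an FDR of 0.0738 on lane 3. BOLA-DMB and BOLA-DYB passed on lane 2 only, and BOLA-DQB on lane 3 only. In the 6 NC steers alone, which received no antimicrobial, 5 members were higher on day 56, namely CIITA, CD74, BOLA-DRA, BOLA-DRB3 and BOLA-DOA, beside 13.6% of all genes tested. Over all 42 steers, limma voom had BOLA-DQA5 higher on day 56, at 0.65 (FDR 0.00182), where edgeR gave 0.10 (FDR 0.781).

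Other genes of the pathway were both higher and lower on day 56, when 33.9% of all genes tested were higher and 31.8% lower. Of 10 regulators that bind class II promoters or act in the cells that use them, 2 were higher and 7 lower on day 56. Those higher were RFXANK, a subunit of the RFX complex, at 0.45 ± 0.04, and NFYC, a subunit of NF-Y, at 0.32 ± 0.02. The lower ones included RFXAP at -0.17 ± 0.03 and NFYB at -0.55 ± 0.10, other subunits of these complexes, and CREB1 at -0.25 ± 0.04. Of 9 tested genes of antigen processing, 3 were higher and 3 lower. CST3, an inhibitor of cathepsins, CTSZ and CTSD were higher, at 0.42, 0.14 and 0.14, and CTSS, the cathepsin that trims the invariant chain, CTSB and CTSH were lower, at -0.46, -0.20 and -0.19. Of 8 partners on the cell surface, 5 were higher, among them LAG3 at 0.51, CD4 at 0.46 and CD40LG at 0.38. The 3 lower ones were the costimulators CD80 at -0.64 and CD86 at -0.34, and CTLA4 at -0.19. Interferon gamma is the main inducer of CIITA, and of 11 genes of its response 1 was higher, PSMB9 at 0.22, and 6 were lower, among them JAK2 at -0.84, GBP5 at -0.69 and GBP4 at -0.68. CTSL of the processing list and CA1 of the red cell list did not pass the filter, and MARCHF1 and the neutrophil marker CSF3R were matched to no row.

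Markers of the blood cells moved at the same time. Of 12 B cell markers, 8 were higher on day 56, among them the kinase BLK at 1.18 ± 0.05, the BAFF receptor TNFRSF13C at 0.55 and CD79A at 0.51, and 2 were lower, PAX5 at -0.40 and EBF1 at -0.25. Their summed level had a median of 1956 CPM (1103 to 2752) on day 0 and 2359 CPM (1623 to 3535) on day 56. Of 9 monocyte markers 0 were higher by edgeR, 0 at an unadjusted p under 0.05 and 0 by limma voom, and 8 were lower, among them CD163 at -1.11, CD14 at -0.88 and FCGR1A at -0.76, and the sum went from 970 to 673 CPM. Of 9 dendritic cell markers 2 were higher, ZBTB46 at 0.91 and IRF8 at 0.08, and 5 lower, among them XCR1 at -0.74, CLEC9A at -0.70 and TCF4 at -0.48. Of 10 T cell markers 9 were higher, among them CD3E at 0.66, CD247 at 0.61 and CD3D at 0.54. Of 7 neutrophil markers 5 were lower, among them S100A12 at -0.72, S100A9 at -0.70 and S100A8 at -0.61, and of 7 red cell markers 1 was higher, ALAS2 at 0.93, and 4 by limma voom. CD28 stands in both the partner and the T cell list, and IRF1 in both the regulator and the interferon list.

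Over steers, the change of several class II genes was related to that of the B cell markers. For the change from day 0 to day 56 in 42 steers, BOLA-DOA and the mean log2 CPM of the B cell markers had an r of 0.81 and a rho of 0.82, with an adjusted permutation p of 0.000165 for both. The r was 0.79 without the 2 farthest steers and 0.67, 0.90 and 0.79 within lanes 1, 2 and 3. For CIITA the r was 0.73 and the rho 0.79, with the same adjusted p, 0.78 without the 2 farthest steers, and 0.75, 0.84 and 0.65 within lanes. BOLA-DRB3 had an r of 0.63 and a rho of 0.65 (adjusted permutation p 0.000220 and 0.000330), BOLA-DRA 0.53 and 0.52 (0.00256 and 0.00429), CD74 0.50 and 0.49 (0.00614 and 0.00682) and BOLA-DMB 0.40 and 0.49 (0.0380 and 0.00682). Without the 2 farthest steers their r was 0.67, 0.54, 0.52 and 0.47. On lane 3 these 4 relations were not seen, with an r of 0.22, -0.03, -0.12 and 0.02, while on lane 1 it was 0.83, 0.76, 0.83 and 0.62 and on lane 2 0.67, 0.62, 0.45 and 0.53. Of 33 relations of 11 members with 3 marker lists, 7 passed, and the seventh was BOLA-DMA with the T cell markers, at an r of 0.42 and a rho of 0.42 (adjusted permutation p 0.0306 and 0.0251), with 0.39 without the 2 farthest steers and 0.44, 0.65 and 0.49 within lanes. With the change to the mean of days 14, 21 and 56 in place of day 56, 7 relations passed as well, but not the same ones. BOLA-DMA with the T cell markers (r 0.24, adjusted permutation p 0.288) and BOLA-DMB with the B cell markers (r 0.21, adjusted permutation p 0.315) were lost. BOLA-DYB with the B cell markers (r 0.53, rho 0.53, adjusted permutation p 0.00440 and 0.00407) and BOLA-DMB with the T cell markers (r -0.44, rho -0.42, adjusted permutation p 0.0288 and 0.0387) passed instead. Without the 2 farthest steers the r was 0.58 for BOLA-DYB and -0.29 for BOLA-DMB. Within lanes 1, 2 and 3 it was 0.62, 0.44 and 0.78 for BOLA-DYB and -0.18, -0.46 and -0.49 for BOLA-DMB. On day 56 no relation with the monocyte markers passed, and the r closest to passing was 0.29 for CD74 (adjusted permutation p 0.245). Genes outside the set were not related to the marker lists, so whether these relations are particular to class II genes was not tested. The part of B cell numbers in the change of the class II genes was not tested.

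**Figure D5:**
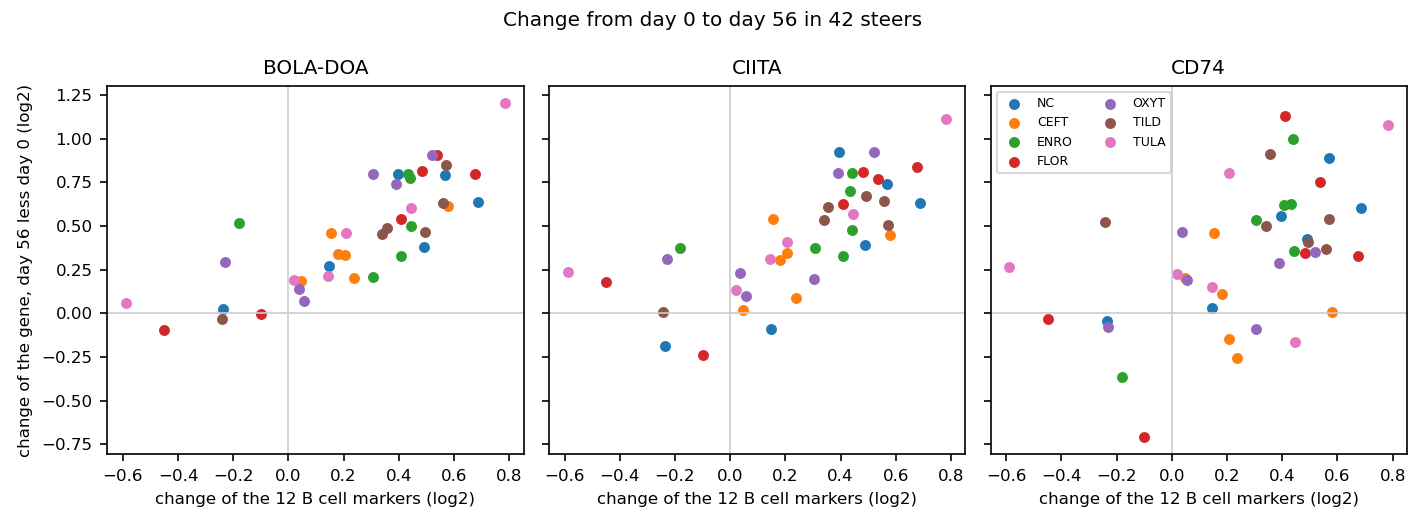
Change from day 0 to day 56 (log2) of BOLA-DOA, CIITA and CD74 against that of the mean of 12 B cell markers, 1 point a steer, coloured by group, 42 steers. The r is 0.81, 0.73 and 0.50 from left to right.

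Each treatment was compared with NC within each day, 36 comparisons of 6 and 6 steers with 13 members. By edgeR's quasi-likelihood test 6 of these 468 values passed an FDR of 0.1, while 0.694% of all gene by comparison values did. Of the 6, 5 were CEFT on day 3, a comparison in which 2071 genes passed, or 10.9% of all genes tested. CD74 stood at 4600 ± 490 CPM (SD, n = 6) in NC and 7731 ± 2379 in CEFT on day 3, a log2 fold change of 0.74 ± 0.18 (edgeR FDR 0.0580), and the lowest CEFT steer, at 6080, lay above the highest NC steer, at 5335. On day 0, before the drug was given, the difference was already 0.61 ± 0.17 (edgeR FDR 0.913). BOLA-DOB was at 0.75 ± 0.18 (edgeR FDR 0.0579), BOLA-DRA at 0.37 ± 0.12 (0.0909) and BOLA-DMB at 0.34 ± 0.11 (0.0927) on that day. BOLA-DQA2 was at 4.62 ± 1.52 (edgeR FDR 0.0959), where 5 of 6 NC steers had no count of the row on any day and the NC mean of 0.889 CPM rests on NC15. In FLOR, CD74 was at 0.47 ± 0.12 on day 3 (edgeR FDR 0.0841), with 5411 to 7381 CPM against 3887 to 5335 in NC, and at 0.38 ± 0.20 on day 0. Another tool, DESeq2, called 22 of the 468 values. All 6 passing values were lost when counts were adjusted for lane by ComBat_seq, where 0 passed and 24 had an unadjusted p under 0.05, against 64 before the adjustment, and 1 value passed with lane as a term in the fit. All NC steers were on lane 1 and all CEFT steers on lane 3. The adjustment had no term for treatment and so also removes differences between these groups. Its loss of values cannot tell lane from treatment. The B cell markers summed to medians of 1590 CPM in NC, 2474 in CEFT and 2332 in FLOR on day 3. On day 0 these medians were 1543, 1902 and 2026 CPM. The part of the B cells in the differences was not tested.

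Over all 6 days together, CD74 was higher than NC in CEFT by 0.44 ± 0.12 (limma voom FDR 0.0212) and in TILD by 0.46 ± 0.12 (FDR 0.00806). These were the only 2 of 78 member by treatment values at an FDR of 0.05, where 1.95% of all gene by treatment values passed. The mean over days includes day 0, before the drug was given. By edgeR within single days, CD74 was above NC on all 6 days in both groups, by at least 0.34 in TILD and 0.10 in CEFT. Means of the 6 steers were 5022 ± 589 CPM (SD) in NC, 6863 ± 1476 in CEFT and 7013 ± 1644 in TILD, and the highest NC steer, at 5763, lay above the lowest CEFT and TILD steers, at 5569 and 5432. No CEFT or TILD steer shared a lane with NC, so lane and treatment cannot be told apart here, and neither value passed after ComBat_seq, where 5 of the 78 had an unadjusted p under 0.05.

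The change from day 0 was then compared between each treatment and NC, which removes the level a steer already had. Over the 5 later days together, 4 of 78 values passed an FDR of 0.1 by edgeR's quasi-likelihood test, where 5.78% of all gene by treatment values did. They were CD74 in CEFT (FDR 0.0870) and BOLA-DRB3 (0.0410), BOLA-DRA (0.0651) and BOLA-DMB (0.0908) in ENRO. In these comparisons 12.2% of all genes tested passed in CEFT, beside 1 of 13 members, and 12.6% in ENRO, beside 3 of 13. The joint test gives no direction and does not show a larger rise of CD74 in CEFT. As given above, CD74 was already higher in CEFT on day 0. Its difference from NC ran from 0.10 to 0.74 over the 6 days, with the highest on day 3. On single days 2 of 390 values passed, where 0.749% of all values did, both in ENRO on day 7, whose libraries shared lane 1 with NC. In that comparison 11.3% of all genes tested passed, a share near that of the members, 2 of 13. The difference from NC in the change of BOLA-DRA was -0.48 ± 0.15 (FDR 0.0406): the change of the 6 ENRO steers had a median of -0.13 (-0.57 to 0.12), with 1 steer higher than on day 0, and that of the 6 NC steers a median of 0.24 (-0.01 to 0.57), with 5 higher. For BOLA-DRB3 the difference was -0.49 ± 0.14 (FDR 0.0258), with a median of -0.08 in ENRO and 0.26 in NC. BOLA-DMB had a median change of -0.31 in ENRO and 0.03 in NC. On day 7 the summed level of the neutrophil markers had a median change of -1.02 in ENRO (-1.82 to -0.90) and -0.10 in NC (-2.38 to 1.25), that of the processing genes -0.31 and -0.04, that of the B cell markers 0.24 and 0.39 and that of the monocyte markers -0.43 and -0.47. Their part in the difference was not tested. When the steer was not kept as a block, 0 joint and 0 single day values passed by edgeR, with 1 and 2 at an unadjusted p under 0.05, and with the block limma voom called 3 and 2. On days 14, 21 and 56 the median change of BOLA-DRA in ENRO was 0.22, 0.30 and 0.26.

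The genes whose pattern was most like that of a member were taken from all genes tested outside the set. Over all libraries less their steer means, CIITA was closest to PALM (rho 0.92), SCAMP4 (0.92), CYB561A3 (0.91), CERS4 (0.89) and SLC43A2 (0.89), and CD74 to VPS18 (0.82), CCDC22, SH3BGRL3 and CYB5R3 (0.77). Over the means of 42 steers, the closest to BOLA-DQA5 were DGCR6L (rho 0.62), LOC112446875, LOC527645, TMEM143 and ATG12 (0.53), and the closest to BOLA-DQA2 were TNFRSF21 (0.63), ST3GAL1, CD180, DLL3 and TRPC2 (0.59). Neither on and off row had a gene outside the set with a rho above 0.63 over steers.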

How the data were processed

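The authors deposited a table of whole-number counts per gene for the whole-blood libraries of 42 steers on 6 days. According to the submitters' notes, reads were trimmed with Trimmomatic 0.39, aligned with HISAT2 2.1.1 and assembled and counted with StringTie 2.2.0; the study's methods give another HISAT2 version. Library totals were 26073640 to 74110289 counts. After TMM scaling, the 19056 genes that exceeded a CPM of 0.2 in 12 libraries or more were tested with edgeR 4.0.16 in R 4.3.3. Quasi-likelihood tests replaced the study's likelihood ratio test and limma voom (limma 3.58.1), with the correlation between libraries of a steer, its mixed model. That model also had breed as a random effect. Breed was not used here, and its part in the differences between steers was not tested. Levels are CPM, log2 shares used a prior count of 2, and adjusted p-values are Benjamini-Hochberg over all genes tested.

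Steer was a block in day tests because the samples of a steer come from the same animal, and by all genes tested the nearest library of another day was of the same steer for 100% of libraries. Comparisons with NC within a day, as in the study, and of the change from day 0 with that of NC used an FDR of 0.1, and the others 0.05. Steers, libraries and groups were taken from the sample titles, and p-values of steers within a pen measure the spread between these steers. Correlations over steers used 100000 permutations, two-sided, and Benjamini-Hochberg adjustment within 55 pairs and 33 relations.

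All members were named, with up to 3 genes that rose most and 3 that fell most on day 56 per list, and the 5 genes most alike to CD74, CIITA and each on and off row, of which 1 gene is not reported here. The members and lists were chosen with earlier results of these data known. The related rows BLA-DQB and LOC100848815 and the summed rows were added after the table was seen. The scripts were tested on simulated counts. Alternatives were other scaling, filters, tools (DESeq2 1.42.0, limma voom), lanes (ComBat_seq, sva 3.50.0) and hemoglobin limits.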

Additional observations from a re-analysis of the deposited data

Results flagged for a closer look

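In 13 of 91 groups of 6 steer means (13 members in 7 groups), the gap of 1 steer from the other 5 passed Dixon's 95% critical value. Chance flags about 1 in 20 groups only where values are normally distributed and groups independent. On and off rows are not so distributed, and Enro6 and Tula4 recur in related members. The number of flags can therefore not be set against that rate. For BOLA-DQA5 the flagged steers were NC5 at 179 CPM (the other NC steers 0 to 0.00320), Ceft4 at 131 (others 0 to 11.1) and Enro6 at 86.8 (others 0 to 0.00389). For BOLA-DQA2 they were NC15 at 9.89 (all others at 0), Ceft3 at 75.3 (among the others Ceft8 at 12.8 and Ceft4 at 0.00986) and Oxyt2 at 97.9 (others 0 to 34.8). Enro6 was also far below its group in BOLA-DRA, at 1174 (others 2207 to 2647), and in CD74, at 2941 (others 5189 to 6467). Tula4 was far above its group in BOLA-DRA, at 3228 (others 2314 to 2654), BOLA-DOA, at 314 (others 138 to 201), and CIITA, at 489 (others 250 to 329). Flor4 was so for CIITA, at 464 (others 259 to 324), and Enro8 for BOLA-DRB2, at 19.4 (others 2.09 to 6.29).

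The change from day 0 differed from that of NC by the edgeR test of the difference itself in ENRO on day 7, by -0.48 for BOLA-DRA and -0.49 for BOLA-DRB3. Over the 5 later days together, in a joint test without a direction, the FDR was 0.0870 for CD74 in CEFT. In ENRO it was 0.0908 for BOLA-DMB, 0.0651 for BOLA-DRA and 0.0410 for BOLA-DRB3.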

How the results depend on the processing

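Members changed over the days numbered 9, and 4 in NC steers alone. On day 56 the number was 8, and it was 5 in NC alone, 5 on lane 1 and 4 on lane 3. Differences from NC within a day numbered 6, and 22 by DESeq2, 0 after ComBat_seq by lane, 1 with lane as a term and 3 with no filter. The group effect over all days, 2 values, gave 0 after ComBat_seq. Lane and treatment overlapped, so the loss of values after ComBat_seq does not tell them apart. Without the replicate block the changes that differed from NC went from 4 and 2 values to 0 and 0, members changed over the days from 9 to 7 and those of day 56 from 8 to 7. Libraries nearest to their own steer went from 148 to 92 without the on and off members. The direction on day 56 turned for BOLA-DQA2, at -0.09, to 0.29 without the replicate block, 0.16 by limma voom, 0.76 in NC alone and 0.68 on lane 3. It also turned for BOLA-DMA in NC alone (-0.15), and on lane 3 for BOLA-DQA5 (-0.66) and BOLA-DRB2 (-0.13). The cause was not tested. Fewer steers entered the fits of NC or 1 lane. By a fixed limit on the fold difference, 40 summary counts stayed near their main count, the falls to 7 without the replicate block among them. Of the values of single genes, 181 kept their direction and side of the threshold, 35 lost their call and 1 gained it. Depth limits values at 0 to at most 3 counts, and the day changes of single DQ, DMA and DOB rows have wide errors.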

Other observations

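BOLA-DYA, the DY alpha chain row that was not tested, reached 0.253 CPM at most, and 2 libraries were above 0.2 CPM. Next to it in the RefSeq order of the rows named here was DSB, a class II row without the prefix of the members. This row was named after its values were seen. DSB was lower on day 56 by edgeR, at -0.20 ± 0.06 (FDR 0.00216), and steers took 82.3% of its variation.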
